A study of Mus musculus with 20 samples.

Results

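The genes described here are those of cytosolic translation initiation and of transfer RNA charging in mouse liver. They were taken from the array's annotation as every gene whose symbol is Eif followed by a digit, leaving out the eIF2 kinases, together with the cytosolic aminoacyl-tRNA synthetases. The rule itself uses no measured value, although the genes were taken up with earlier results of these data known. The rule found 62 of the 18193 genes that had a probe set of their own, namely 43 initiation factors and 19 synthetases. Of these, 60 passed the filter on dim probe sets and were tested among 12832 genes, 41 of them initiation factors and 19 synthetases. The remaining pair, Eif4a3 and Eif5a2, lay above the median of their array on 0 and 2 of the 20 arrays and were not tested.

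The study followed the liver of male C57BL/6 mice, 8 to 12 weeks old, through injury and resuscitation. The control group had 5 arrays of non-manipulated animals, and the minor trauma group had 3 arrays. Hemorrhagic shock with severe trauma for 1.5 h, called shock below, had 4 arrays. In 4 further arrays the same shock was followed by 1 h of resuscitation, and in another 4 by 4.5 h. Biotin-labelled RNA of whole liver, primed from the poly-A tail, was hybridised to 1 Affymetrix array per sample. The design text names anaesthesia and surgery for the experiment as a whole, and the time at which minor trauma livers were taken is not given in the sources used here. Shock and severe trauma came together on every shock and resuscitation array, so no comparison can tell them apart. Without the minor trauma time, anaesthesia and elapsed time cannot be told apart from them either.

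Initiation of translation begins when eIF2, loaded with GTP and the initiator transfer RNA, joins the small ribosomal subunit with eIF1, eIF1A, eIF3 and eIF5, while eIF4E, eIF4G and the helicase eIF4A bring in the capped end of a messenger RNA. eIF2B reloads eIF2 with GTP, and phosphorylation of eIF2 by stress kinases blocks that step and is the core of the integrated stress response. Aminoacyl-tRNA synthetases attach each amino acid to its transfer RNA. The liver uses this machinery heavily, because it makes most plasma proteins, and several synthetase genes are known targets of the stress factor ATF4.

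Promoter sequences were available for 46 of the 62 genes, and 6 are shown because they bear on the 2 contrasts described below: synthetases that share a motif but not a response, and a pair of helicase paralogs that moved apart. The sequences are RefSeq's, of build GRCm38.p6, from 250 bases before to 50 bases after the annotated transcript start, read 5′ to 3′ on the gene's own strand. Capitals mark the motifs searched on both strands, which were TGATGCA, part of the amino acid response element bound by ATF4, the E-box CACGTG, and the ETS-type motif GGAAGTG. The motif TGATGCA was present in the promoters of Aars (chr8:111033592-111033891, plus strand), Yars (chr4:129189653-129189952, plus strand), Iars (chr13:49681880-49682179, plus strand) and Tars (chr15:11399609-11399908, minus strand). On the complementary strand it reads TGCATCA.
Aars: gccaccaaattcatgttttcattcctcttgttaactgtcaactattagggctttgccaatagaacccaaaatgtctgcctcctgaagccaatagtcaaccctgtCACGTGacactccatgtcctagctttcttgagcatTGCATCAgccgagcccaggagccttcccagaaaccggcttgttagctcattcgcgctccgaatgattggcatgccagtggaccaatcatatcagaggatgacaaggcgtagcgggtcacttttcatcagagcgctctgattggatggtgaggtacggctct
Yars: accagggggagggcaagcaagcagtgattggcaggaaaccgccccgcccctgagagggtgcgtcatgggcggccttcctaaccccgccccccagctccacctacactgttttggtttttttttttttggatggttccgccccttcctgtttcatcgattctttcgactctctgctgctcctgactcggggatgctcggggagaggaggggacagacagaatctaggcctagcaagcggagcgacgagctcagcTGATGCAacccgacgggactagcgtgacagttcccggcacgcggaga
Iars: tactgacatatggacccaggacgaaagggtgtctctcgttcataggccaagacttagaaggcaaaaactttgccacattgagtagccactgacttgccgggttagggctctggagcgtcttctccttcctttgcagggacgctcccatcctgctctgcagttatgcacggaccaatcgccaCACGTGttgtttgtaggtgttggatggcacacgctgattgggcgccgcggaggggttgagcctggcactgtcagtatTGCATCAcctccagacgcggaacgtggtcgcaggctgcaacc
Tars: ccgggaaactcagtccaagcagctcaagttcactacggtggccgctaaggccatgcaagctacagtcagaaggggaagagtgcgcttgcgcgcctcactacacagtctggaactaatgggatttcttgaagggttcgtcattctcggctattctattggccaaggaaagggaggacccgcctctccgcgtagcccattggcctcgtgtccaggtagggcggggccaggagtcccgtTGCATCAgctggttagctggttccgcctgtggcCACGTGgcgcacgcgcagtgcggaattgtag
The other pair encodes the eIF4A helicases, Eif4a1 (chr11:69672374-69672673, minus strand) and Eif4a2 (chr16:23107218-23107517, plus strand).
Eif4a1: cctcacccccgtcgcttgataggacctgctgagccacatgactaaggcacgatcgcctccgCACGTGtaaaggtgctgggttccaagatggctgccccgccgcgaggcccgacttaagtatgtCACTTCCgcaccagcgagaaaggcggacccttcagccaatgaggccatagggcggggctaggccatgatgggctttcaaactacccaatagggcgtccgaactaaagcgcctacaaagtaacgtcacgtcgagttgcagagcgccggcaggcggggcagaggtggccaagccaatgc
Eif4a2: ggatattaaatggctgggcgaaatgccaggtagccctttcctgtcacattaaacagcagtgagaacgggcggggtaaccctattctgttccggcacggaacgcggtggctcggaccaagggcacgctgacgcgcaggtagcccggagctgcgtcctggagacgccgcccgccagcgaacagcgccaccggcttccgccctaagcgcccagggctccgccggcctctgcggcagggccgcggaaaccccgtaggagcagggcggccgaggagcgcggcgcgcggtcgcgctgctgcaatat
The 4 synthetases were 8.7% of the 46 genes, and 3.63% of the 27025 genes in the table held TGATGCA. An E-box was found in 13 of the 46 (28.3%) against 8.09% of all genes, and GGAAGTG in another count of 13 (28.3%) against 12.5%. The Eif4a1 promoter held the E-box 189 bases and the ETS-type motif 127 bases upstream of the start, whereas the Eif4a2 window held none of the searched letters. These are matches of letters and no measure of binding.

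Values below are log2 of the deposited signal plus 6 after quantile normalization over the 20 arrays, unless a sentence says otherwise, and a gene was called in a comparison at an adjusted p of at most 0.05. The labels do not say whether each array holds the RNA of 1 mouse, so p-values measure the spread between arrays. Hepatocyte markers were high on every array, with summed signals of 57600 to 61846 in controls and 59178.6 to 63135.5 at 4.5 h of resuscitation. Deposited array medians ran from 14.05 to 29.11, and the log2 ratio of the 3′ to the 5′ Gapdh control lay between -0.57 and -0.08. A pair of arrays stood apart: control array 5 correlated best with minor trauma array 2 (r = 0.983) rather than with another control, and minor trauma array 3 had an estimated array weight of 0.177. The arrays also fell into 10 with and 10 without signal for the dap spike-in control, a split that crossed all 5 groups and is given beside the main result.

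Few initiation factors or synthetases were called in shock or at 1 h of resuscitation, and most calls fell at 4.5 h, where 18 of the 20 were rises. This timing was not particular to them: of all genes tested, 3.11% were called in shock, 9.91% at 1 h and 38.9% at 4.5 h. Of the 60 genes, 33.3% were called at 4.5 h against control. At 4.5 h against control, 18 of the 60 genes rose and 2 fell, where 15.1% of all genes tested rose and 23.8% fell (38.9% either way). Against 1 h of resuscitation, 18 rose and 1 fell, with 14.9% and 18.2% of all genes (33.1% either way). Shock against control gave no call among the 60, with 3.11% of all genes called; limma found 7 of the 60 at an unadjusted p under 0.05. The step from shock to 1 h also gave 0, with 1.25% of all genes called and 3 of the 60 at an unadjusted p under 0.05. At 1 h against control 2 rose and 1 fell (4.61% and 5.31% of all genes, 9.91% either way), minor trauma raised 4 and lowered none (2.07% and 1.37%, 3.44% either way), and shock lay below minor trauma for 12 and above for none (5.38% and 4.18%, 9.55% either way). Over the 5 groups together, the F test called 26 of the 60, against 45.4% of all genes.

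**Figure D1:**
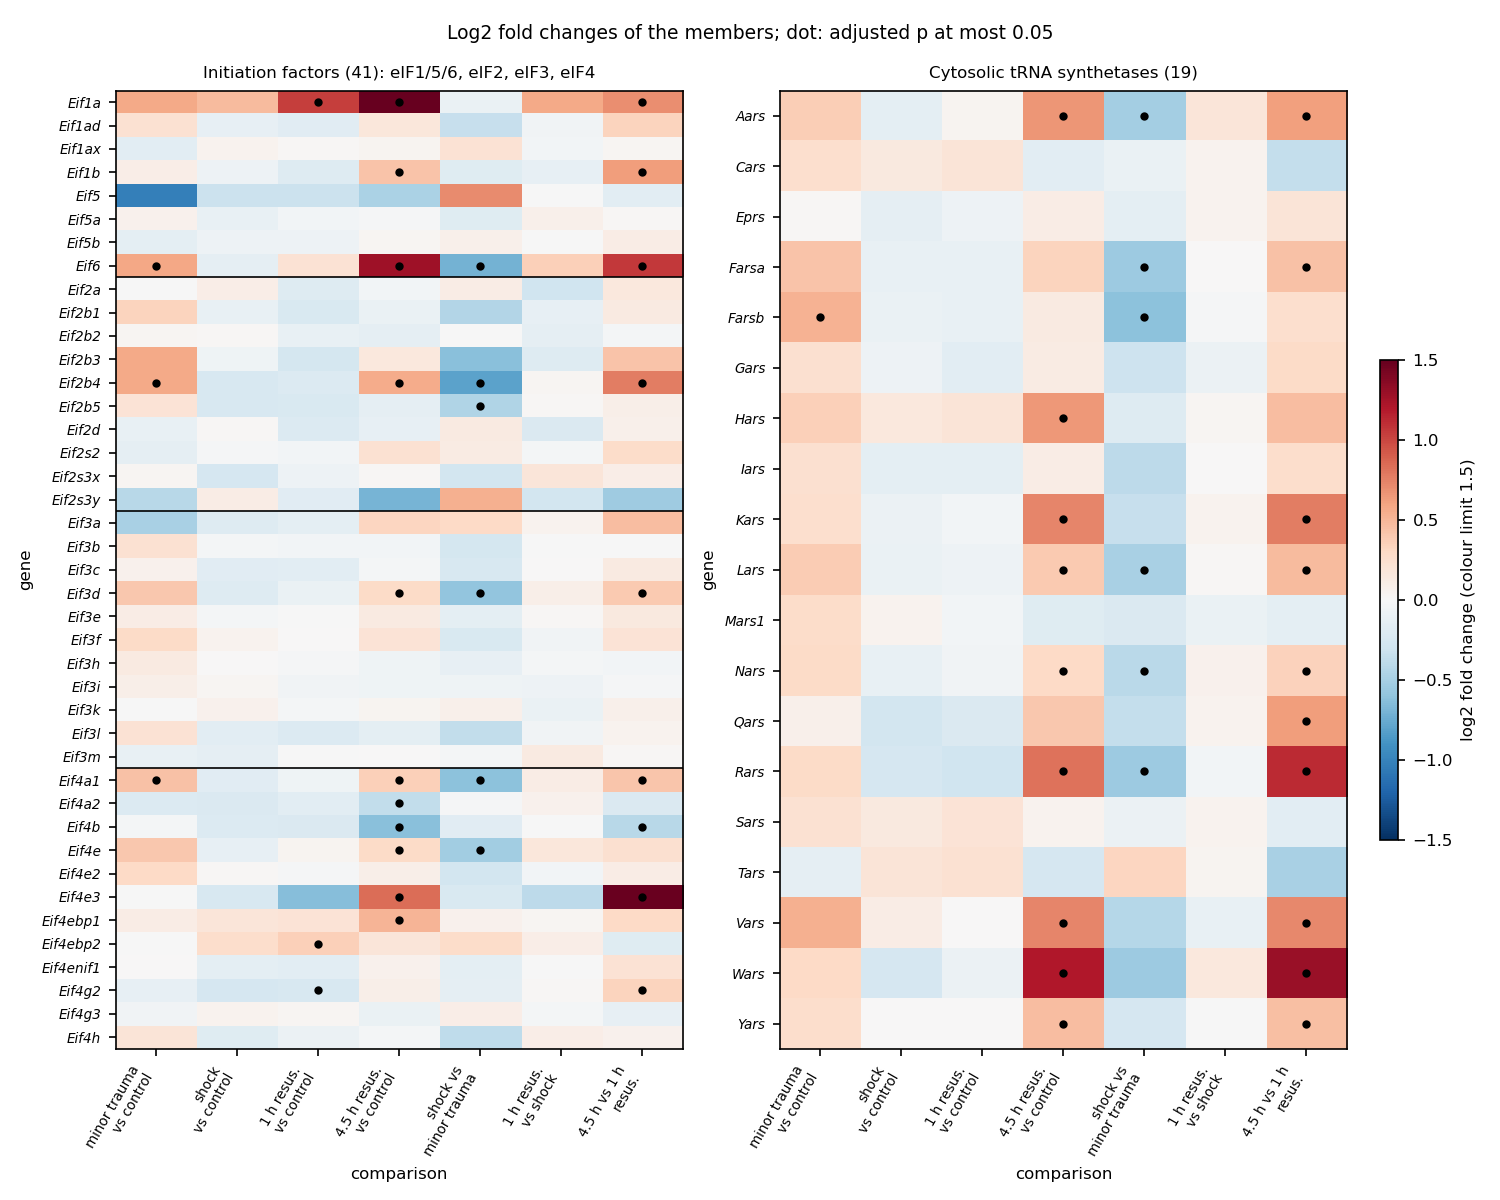
Log2 fold change of each of the 60 tested genes (vertical axis, by family in the left panel with lines between families, synthetases in the right panel) in 7 comparisons (horizontal axis), red for higher and blue for lower, with a dot where the adjusted p was at most 0.05. Dots gather in the columns of 4.5 h against control and against 1 h, and in shock against minor trauma, where all 12 are blue.

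At 4.5 h of resuscitation the genes that rose were 9 initiation factors and 9 synthetases. The factors were 4 of the eIF4 group, 3 of the eIF1, eIF5 and eIF6 group, 1 of eIF2 and eIF2B and 1 of eIF3. Synthetases supplied 9 of the 18 that rose, out of 19 tested, and their median log2 fold change was 0.33 with 16 of 19 above 0. The 41 initiation factors had a median of 0.04, against -0.09 over all genes tested, and supplied 9 that rose and both that fell. Within the 10 arrays with the dap signal 11 of the 60 were called (21.8% of all genes) and within the 10 without it also 11 (23.7%), each set holding fewer arrays per group. On the values as deposited, without normalization, 3 rose and 2 fell, with 22.7% of all genes called either way; there the median of all genes was itself shifted to -0.27.

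Among the factors that sit on the scanning ribosome, Eif1a, the autosomal gene for eIF1A, showed the largest rise of all 60. Its levels were 8.59, 8.45, 8.07, 8.24 and 9.40 on the control arrays and 10.28, 10.35, 10.25 and 10.28 at 4.5 h. In between, it read 8.89, 9.61 and 8.85 after minor trauma, 9.24, 9.03, 9.07 and 8.75 in shock and 9.17, 9.79, 9.66 and 9.76 at 1 h. Every 4.5 h array was above all other 16 arrays, and control array 5 was the one control that reached into the shock and 1 h ranges. The rise over control was 3.33-fold (log2 fold change 1.74, SE 0.21, adjusted p = 1.34e-06) and was already 2.06-fold at 1 h (log2 fold change 1.04, SE 0.21, adjusted p = 0.0022). From 1 h to 4.5 h it rose again by 0.69 (adjusted p = 0.0195), a call that ended without 1 h array 1. Its X-linked paralog Eif1ax gave 0.04 at 4.5 h, with a 95% interval of -0.21 to 0.30. Eif1b, a paralog of the start-codon selection factor eIF1, rose from 8.08 to 8.50 in controls to 8.68 to 8.83 at 4.5 h, without overlap (log2 fold change 0.42, SE 0.0997, adjusted p = 0.00177).

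Eif6 encodes a factor that binds the large ribosomal subunit, takes part in making it, and keeps it from joining the small subunit too early. It lay at 9.05, 9.01, 9.19, 9.55 and 9.50 in controls and at 10.49, 10.51, 10.67 and 10.46 at 4.5 h. The levels were 9.77, 9.72 and 9.997 after minor trauma, 9.23, 9.11, 9.15 and 9.01 in shock and 9.23, 9.54, 9.58 and 9.57 at 1 h. The 4.5 h arrays were again the 4 highest of the 20, the minor trauma arrays came next, and shock and control overlapped. The rise at 4.5 h was 2.42-fold (log2 fold change 1.28, SE 0.118, adjusted p = 3.17e-08), and 2.08-fold over 1 h (adjusted p = 1.64e-06). With both of its kept probe sets averaged, the gene gave 0.74 (adjusted p = 0.00128) against control and 0.20 (adjusted p = 0.422) against 1 h, where the call ended. The eIF5 genes did not pass the test at 4.5 h: Eif5, which triggers GTP hydrolysis on eIF2, gave -0.48 (adjusted p = 0.19), Eif5a -0.02 (adjusted p = 0.807) and the subunit-joining GTPase Eif5b 0.03 (adjusted p = 0.914). In all, 3 of the 8 tested genes of the eIF1, eIF5 and eIF6 group rose at 4.5 h and none fell.

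The 10 tested genes with Eif2 symbols cover eIF2 and its exchange factor, and also Eif2a and Eif2d, which are subunits of neither. Of these 10, 1 rose. This was Eif2b4, the delta subunit of eIF2B, with levels of 8.06, 8.17, 8.23, 8.26 and 8.55 in controls and 8.68, 8.70, 8.96 and 8.91 at 4.5 h. All 4 late arrays were above all 5 controls, of which array 5 was the highest (log2 fold change 0.56, SE 0.132, adjusted p = 0.00184). The other eIF2B subunits measured, Eif2b1, Eif2b2, Eif2b3 and Eif2b5, gave -0.10, -0.14, 0.16 and -0.14, with the lowest adjusted p at 0.399. Of the eIF2 subunits, Eif2s2 (beta) gave 0.23 (adjusted p = 0.241) and the X-linked gamma gene Eif2s3x 0.02 (adjusted p = 0.89). The Y-linked gamma gene Eif2s3y gave -0.70 (adjusted p = 0.0622), with 4.5 h levels spread from 7.22 to 8.30.

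The eIF3 complex is the large scaffold that binds the small ribosomal subunit. Of its 11 subunits tested, only Eif3d, which can itself bind the messenger cap, passed the test at 4.5 h. It lay at 8.97, 8.91, 8.99, 8.95 and 9.36 in controls and 9.42, 9.38, 9.37 and 9.14 at 4.5 h. Late arrays 1 to 3 were above all controls and array 4 fell below control array 5 (log2 fold change 0.29, SE 0.109, adjusted p = 0.0402). That call was lost when any 1 of control arrays 1 to 4 or late arrays 1 to 3 was left out. The other 10 subunits ranged from -0.15 for Eif3l to 0.32 for Eif3a, and the family's median was 0.01.

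Genes of cap recognition and unwinding moved in both directions, 4 of 12 up and 2 down. The helicase paralogs were a case of opposite calls. Eif4a1 was at 10.98, 10.85, 11.07, 10.95 and 11.13 in controls and 11.43, 11.38, 11.36 and 11.26 at 4.5 h, with no overlap (log2 fold change 0.36, SE 0.0916, adjusted p = 0.00352). Eif4a2 was at 11.91, 11.50, 11.72, 11.32 and 11.66 in controls and 11.29, 11.18, 11.27 and 11.28 at 4.5 h, every late array below every control (log2 fold change -0.37, SE 0.115, adjusted p = 0.0141). Shock and 1 h values of Eif4a1 (10.71 to 10.92 and 10.75 to 11.16) overlapped the control range, as did those of Eif4a2 (11.31 to 11.55 and 11.29 to 11.65). The promoters of both are printed above.

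Eif4b, which stimulates the eIF4A helicase, had the larger of the falls called at 4.5 h. Its levels were 9.79, 9.71, 9.64, 9.85 and 9.84 in controls, 9.54, 9.53, 9.50 and 9.66 in shock, 9.60, 9.60, 9.50 and 9.49 at 1 h and 9.27, 9.02, 9.14 and 9.11 at 4.5 h. Minor trauma gave 9.62, 9.60 and 9.99. The 4.5 h arrays were the lowest 4 of the 20, below the nearest other array without overlap (log2 fold change -0.63, SE 0.0925, adjusted p = 1.51e-05). It also lay 1.33-fold below 1 h (adjusted p = 0.00247), a call that ended with its kept probe sets averaged, at -0.31 (adjusted p = 0.0553). Eif4h, a related helper of the helicase, gave -0.03 (adjusted p = 0.881).

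Of the cap-binding eIF4E genes, Eif4e3 and Eif4e were called higher at 4.5 h, and so was the eIF4E-binding protein gene Eif4ebp1. Eif4e3, a divergent member of the eIF4E family, was dim: 6.12, 5.75, 6.56, 6.14 and 6.56 in controls, 6.31, 5.54, 4.48 and 6.01 at 1 h and 7.38, 6.94, 6.52 and 7.40 at 4.5 h. One late array, array 3, was within the control range, and 1 h array 3 was the lowest of all 20 (log2 fold change 0.84, SE 0.283, adjusted p = 0.0232). This call was lost without control array 2 or late array 1 or 4. Eif4e itself rose from 8.84 to 9.05 to 9.15 to 9.31 (log2 fold change 0.28, SE 0.105, adjusted p = 0.0359), a call that ended without any 1 of control arrays 1 to 4 or late arrays 2 to 4. Eif4ebp1, an eIF4E-binding protein that blocks cap-dependent initiation when not phosphorylated, rose from 9.27 to 9.83 to 9.89 to 10.17 (log2 fold change 0.51, SE 0.124, adjusted p = 0.00234). The cap-binding repressor Eif4e2 gave 0.09, the scaffold Eif4g3 -0.10 and Eif4g2, the scaffold relative also called DAP5, 0.09, none of them called. Against 1 h, Eif4e3 rose by 1.48 (adjusted p = 0.000635) and Eif4g2 by 0.33 (adjusted p = 0.00217). With kept probe sets averaged, Eif4g2 gave 0.18 (adjusted p = 0.107).

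**Figure D2:**
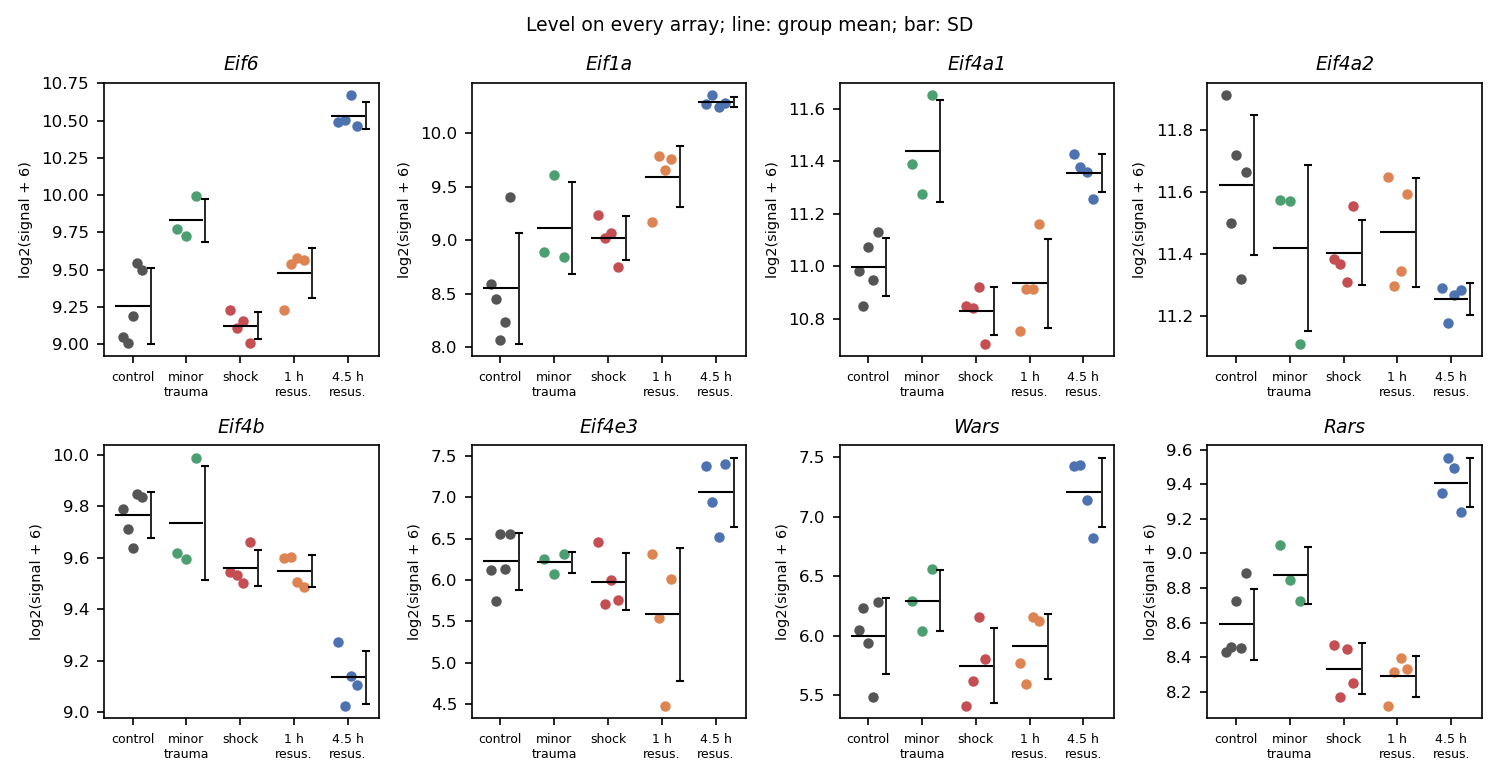
Level of 8 genes (log2 of signal plus 6, vertical axis, a separate range per panel) on each of the 20 arrays by group (horizontal axis), with the group mean as a line and its SD as a bar. For Eif6, Eif1a, Wars and Rars all 4 arrays at 4.5 h are the highest of the 20, and for Eif4b they are the lowest.

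Among the synthetases, Wars, the tryptophanyl-tRNA synthetase, rose most. In human cells this gene is a known target of interferon gamma. It lay at 6.05, 6.24, 5.94, 5.49 and 6.28 in controls and 7.43, 7.44, 7.14 and 6.82 at 4.5 h. The other groups read 6.29, 6.04 and 6.56 (minor trauma), 5.41, 5.62, 6.16 and 5.81 (shock) and 5.77, 5.60, 6.15 and 6.12 (1 h). No array of another group reached the late ones, and the rise over control was 2.31-fold (log2 fold change 1.21, SE 0.191, adjusted p = 3.75e-05). Interferon-induced genes moved over the same interval: 10 of 10 tested were higher at 4.5 h, with a median log2 fold change of 4.90, and their part in the Wars result was not tested.

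Rars, the arginyl-tRNA synthetase, came next among the synthetases. Its levels were 8.43, 8.46, 8.73, 8.45 and 8.89 in controls, 8.47, 8.17, 8.45 and 8.25 in shock and 8.12, 8.31, 8.40 and 8.33 at 1 h, then 9.35, 9.55, 9.49 and 9.24 at 4.5 h. Shock and 1 h against control were not called, at -0.26 (adjusted p = 0.327) and -0.30 (adjusted p = 0.119). The late rise was 1.76-fold over control (log2 fold change 0.82, SE 0.118, adjusted p = 1.24e-05) and 2.17-fold over 1 h (log2 fold change 1.12, SE 0.124, adjusted p = 7.93e-07).

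Kars, for lysine, was at 8.27, 7.95, 7.98, 7.95 and 8.03 in controls and 8.58, 8.94, 8.83 and 8.74 at 4.5 h, with no overlap (log2 fold change 0.73, SE 0.117, adjusted p = 3.95e-05). Vars, for valine, was at 6.34, 6.13, 6.20, 6.35 and 6.66 and 6.97, 7.17, 7.003 and 7.12, again apart (log2 fold change 0.73, SE 0.15, adjusted p = 0.000571). Aars, for alanine, was at 9.56, 9.67, 9.66, 9.35 and 9.58 and 10.12, 10.31, 10.23 and 10.22, apart as well (log2 fold change 0.66, SE 0.1, adjusted p = 2.33e-05). Hars, for histidine, overlapped, with control array 5 at 9.12 and the late arrays at 8.90 to 9.44 (log2 fold change 0.65, SE 0.192, adjusted p = 0.00985). The remaining called synthetases were Yars (tyrosine) at 0.46, Lars (leucine) at 0.39 and Nars (asparagine) at 0.30, and the call of Nars ended without control array 4 or late array 2 or 3.

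The other 10 of the 19 synthetases did not pass at 4.5 h against control, among them both subunits of the phenylalanyl enzyme, Farsa at 0.33 (adjusted p = 0.0789) and Farsb at 0.14 (adjusted p = 0.347). The glutamyl-prolyl enzyme Eprs gave 0.12, Gars (glycine) 0.12, Iars (isoleucine) 0.11 and Sars (serine) 0.05. Values below 0 were found for Cars (cysteine) at -0.16, Mars1 (methionine) at -0.19 and Tars (threonine) at -0.25, the last with a 95% interval of -0.63 to 0.13. Qars (glutamine) was at 0.40 (adjusted p = 0.0848) against control but rose over 1 h by 0.62 (adjusted p = 0.016), a call lost without 1 h array 1 or 3 or late array 2 or 3. Of the 4 synthetases whose available promoters hold TGATGCA, Aars and Yars were called higher and Iars and Tars were not. Promoters were available for only 8 of the 18 genes called higher. Wars, Rars, Vars, Eif1a and Eif6 were not among these, so they were not searched for the motif.

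**Figure D3:**
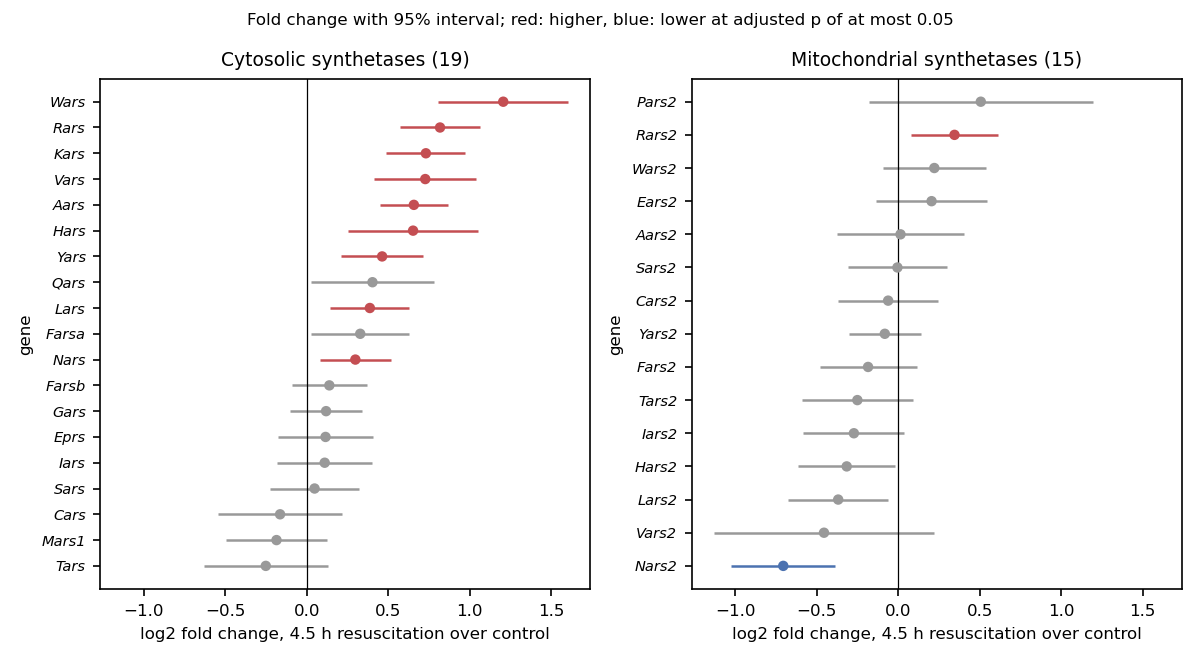
Log2 fold change at 4.5 h of resuscitation over control (horizontal axis) with its 95% interval for each of the 19 cytosolic synthetases (left) and 15 mitochondrial synthetases (right), genes on the vertical axis, red where called higher and blue where called lower. In the cytosolic panel 9 genes are red, whereas the mitochondrial panel has 1 red (Rars2) and 1 blue (Nars2).

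The mitochondrial synthetases charge transfer RNAs inside the organelle. At 4.5 h against control 1 of 15 was higher and 1 lower (15.1% and 23.8% of all genes), with a median of -0.08. These were Rars2 at 0.35 (SE 0.127, adjusted p = 0.0356) and Nars2 at -0.71 (SE 0.153, adjusted p = 0.000904); the call of Rars2 ended without control array 1, 2 or 4 or late array 2 or 3. Rars2 was also below control at 1 h, by -0.64 (adjusted p = 0.00185), and rose by 0.99 from 1 h to 4.5 h (adjusted p = 9.21e-06), so cytosolic and mitochondrial arginyl enzymes both rose in that interval. Of the 3 scaffold proteins that hold synthetases in one complex, Aimp2 rose by 0.43 (SE 0.121, adjusted p = 0.00758).

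From 1 h to 4.5 h of resuscitation, 10 of 19 synthetases (52.6%) and 8 of 41 initiation factors rose, beside 14.9% of all genes tested. The largest were Eif4e3 (1.48), Wars (1.29), Rars (1.12), Eif6 (1.06), Kars (0.77), Eif2b4 (0.77) and Vars (0.72), with adjusted p from 7.93e-07 for Rars to 0.00136 for Vars. The rise of the dim Eif4e3 was 2.13 within the arrays with the dap signal, which hold its lowest array, 1 h array 3. It was 0.80 within those without the signal. Aars, Eif1b and Qars each rose by 0.62. Farsa rose by 0.44 (adjusted p = 0.0323), a call lost without 1 h array 1 or 2 or late array 1, 3 or 4, and with kept probe sets averaged, at 0.36 (adjusted p = 0.186). That of Nars, at 0.35, was lost without late array 2 or 3. The synthetases' median in this interval was 0.44, that of the initiation factors 0.11 and that of all genes -0.04. Both this comparison and the one with control use the same 4 late arrays.

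Minor trauma raised 4 genes: Eif6, Eif2b4, Farsb and Eif4a1. Eif6 rose by 0.57 (SE 0.128, adjusted p = 0.0224), with all 3 arrays above all controls, a call that ended with its probe sets averaged, at 0.35 (adjusted p = 0.292). Eif2b4, at 8.72, 8.53 and 9.21, rose by 0.56 (adjusted p = 0.0357), although array 2 lay just below control array 5. Farsb, the beta subunit of the phenylalanyl enzyme, was at 8.29, 8.50, 8.29, 8.32 and 8.58 in controls and 8.80, 8.84 and 9.11 after minor trauma (log2 fold change 0.53, SE 0.12, adjusted p = 0.0246). Eif4a1 was at 11.39, 11.27 and 11.65 (log2 fold change 0.44, SE 0.0998, adjusted p = 0.0234). Of the 19 synthetases, 18 lay above 0, with a median of 0.27 against -0.00163 over all genes. Minor trauma array 3 was the highest of its group for each of the 4 genes, and none of the 60 was called without it, as for 0% of all genes. Without control array 1 or 2 the count was also 0 (0.625% and 0.572% of all genes), without control array 3 it was 1 (0.852%), and without control array 5 it was 12 (9.55%).

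Minor trauma array 3 departed in the other direction for some genes. Eif5 read 10.92, 10.59 and 8.82 on the 3 arrays, against 10.68 to 11.36 in controls (log2 fold change -1.03, SE 0.303, adjusted p = 0.062). Eif3a, the largest eIF3 subunit, read 10.41, 10.32 and 8.35, against 10.02 to 10.56. In both, arrays 1 and 2 were near the control range and array 3 was the lowest of all 20.

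Shock lay below minor trauma for 12 genes, 6 of 19 synthetases and 6 of 41 initiation factors, beside 5.38% of all genes tested. These groups differed in the severity of trauma as well as in shock. Their arrays did not overlap for 26 of the 60 (43.3%), against 22.7% of all genes. The largest difference was that of Eif2b4, at 8.09, 7.84, 8.03 and 8.13 in shock against 8.72, 8.53 and 9.21 (log2 fold change -0.80, SE 0.15, adjusted p = 0.00239). Eif6 fell by 0.71 (adjusted p = 0.00246) and Farsb fell by 0.62 (adjusted p = 0.00418). Eif4a1, at 10.85, 10.84, 10.92 and 10.71 in shock, was 1.53-fold lower (log2 fold change -0.61, SE 0.104, adjusted p = 0.00118). The remaining log2 fold changes were -0.59 for Eif3d, -0.54 for Farsa, -0.54 for Rars, -0.52 for Eif4e, -0.51 for Aars, -0.48 for Lars, -0.45 for Eif2b5 and -0.40 for Nars. With kept probe sets averaged, the calls of Eif6, Eif4e and Farsa ended, at -0.30 (adjusted p = 0.341), -0.28 (adjusted p = 0.107) and -0.46 (adjusted p = 0.184). The synthetases' median was -0.36 against -0.02 over all genes, and 18 of 19 lay below 0.

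None of these 12 was called in shock against control. For Eif2b4 the group mean was 8.26 in controls, 8.82 after minor trauma and 8.02 in shock. Without minor trauma array 3, 8 of the 60 were called, with 5.8% of all genes, all 8 among the 12, and Eif2b4 gave -0.60 (adjusted p = 0.0157). The calls of Eif2b5 (-0.25), Farsa (-0.39), Lars (-0.47) and Nars (-0.35) ended without it. Those of Eif2b5 and Nars also ended without any 1 shock array, that of Farsa without shock array 1, 2 or 3, minor trauma array 2 or 1 h array 2, that of Lars without shock array 2 or 4 or minor trauma array 2, and that of Nars without minor trauma array 1. Without shock array 2 the count was 7, with 5.57% of all genes. That of Rars ended without minor trauma array 1 or shock array 2.

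**Figure D4:**
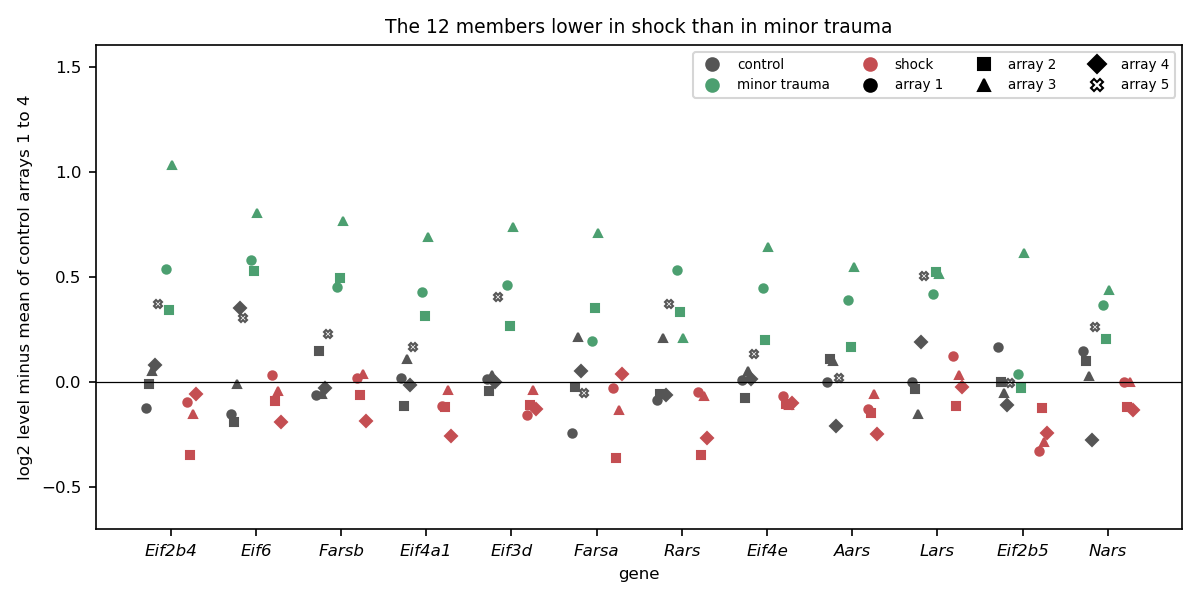
Level of the 12 genes called lower in shock than in minor trauma (horizontal axis) on each control, minor trauma and shock array, as the log2 difference from the mean of control arrays 1 to 4 (vertical axis), with a symbol per array number. Green minor trauma points lie above the red shock points for every gene, array 3 (triangle) is the highest green point for most genes, and control array 5 (open cross) is often the highest control.

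Shock itself, set against untouched controls, gave no call among the 60, and log2 fold changes ran from -0.32 to 0.47. The largest was that of Eif1a, at 0.47 (SE 0.21, adjusted p = 0.31). One hour of resuscitation left Eif1a higher, as given above, with Eif4ebp2 and Eif4g2 as the other calls. Eif4ebp2, a second eIF4E-binding protein, was at 9.42, 9.22, 9.27, 9.36 and 9.44 in controls and 9.54, 9.89, 9.64 and 9.73 at 1 h, without overlap (log2 fold change 0.36, SE 0.0963, adjusted p = 0.0189). This call was lost without control array 2 or 1 h array 2 or 4. Eif4g2 was at 11.85, 11.89, 11.93, 11.84 and 12.02 in controls and 11.63, 11.77, 11.62 and 11.63 at 1 h, also without overlap (log2 fold change -0.24, SE 0.0733, adjusted p = 0.0381). Its call was lost without control array 2, 3 or 5 or 1 h array 1, 3 or 4. On the values as deposited only Eif1a was called at 1 h, so the split there was 1 higher and 0 lower, and with arrays scaled to a common trimmed mean it was 2 and 0.

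Different probe sets of the same gene gave like answers for Wars, Eif4a1, Eif1a and Eif4e3 and unlike ones for others. The 4 probe sets of Wars rose by 0.79 to 1.35 at 4.5 h, the 3 of Eif4a1 by 0.36 to 0.46, the pair of Eif1a by 1.58 and 1.74 and the pair of Eif4e3 by 0.84 and 1.12. Eif6 differed: its second, dim probe set, with a mean level of 5.25, gave 0.21 at 4.5 h (adjusted p = 0.67), and with both averaged 3 of the 4 calls of Eif6 ended, all but that at 4.5 h against control. For Eif4b a second probe set fell by 0.66 and the third gave -0.13 (adjusted p = 0.741). With all kept probe sets averaged, the calls of Eif4g2 ended at 1 h against control, at -0.19 (adjusted p = 0.174), and at 4.5 h against 1 h. Eif4ebp2 was split more widely: 2 other probe sets fell at 4.5 h, by 0.61 and 1.28 (adjusted p = 0.00528 and 1.53e-06), where the brightest gave 0.18, and with all kept probe sets averaged its 1 h rise was 0.02. One of the other probe sets of Eif1ax fell by 0.46 at 4.5 h (adjusted p = 0.0471). The probe sets used for Wars, Aars, Eif4ebp1, Eif4g2 and Farsb carry the platform's mark for sequence shared with other transcripts.

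**Figure D5:**
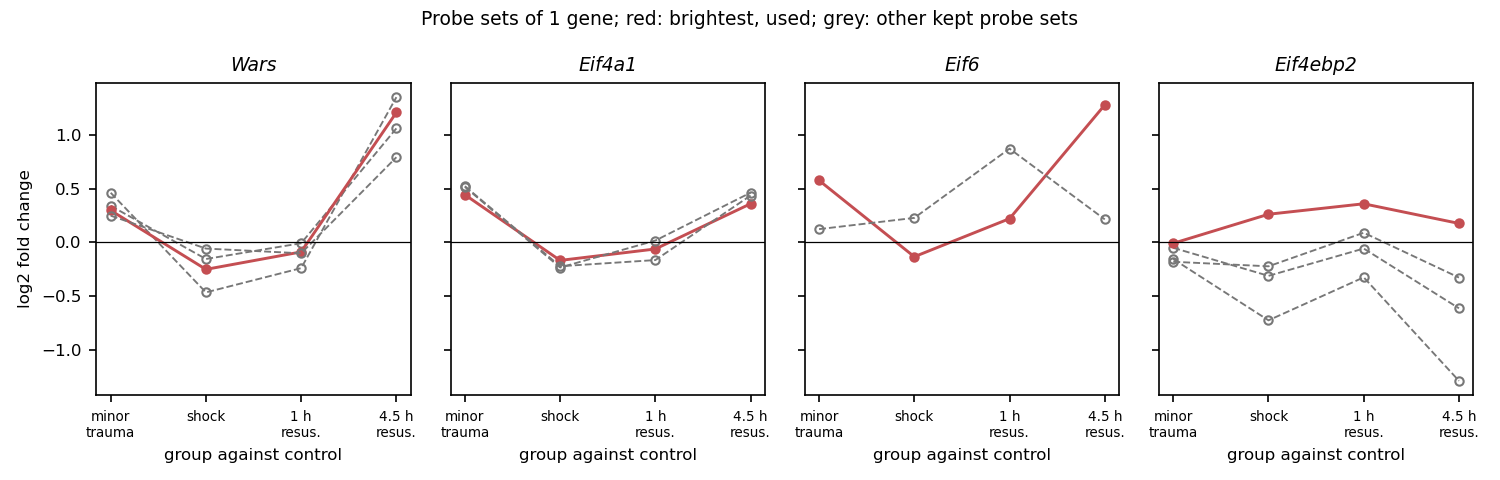
Log2 fold change against control (vertical axis) in each of the 4 injured groups (horizontal axis) for every kept probe set of Wars, Eif4a1, Eif6 and Eif4ebp2, the brightest in solid red and the others in dashed grey, lines joining the values of 1 probe set. The probe sets of Wars and Eif4a1 run together, whereas those of Eif6 and Eif4ebp2 part at 4.5 h.

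Genes on the list of eIF2 kinases and the integrated stress response were called in each of the 4 groups compared with control. Some of them, such as Atf4 and Chac1, belong to the response and do not act on eIF2. This list of 15 genes gave 2 higher and none lower after minor trauma and 3 higher and 1 lower in shock. It gave 5 and 1 at 1 h and 7 and 2 at 4.5 h, with a median of 0.63 at 4.5 h. Of all genes tested, 3.44%, 3.11%, 9.91% and 38.9% were called either way in these comparisons. The pair called after minor trauma were Chac1, a glutathione-degrading enzyme, at 1.59 (SE 0.344, adjusted p = 0.021), and the transcription factor gene Atf4, at 0.69 (SE 0.153, adjusted p = 0.0219). Without minor trauma array 3, where 0% of all genes were called, Chac1 gave 1.39 (adjusted p = 0.129) and Atf4 0.61 (adjusted p = 0.125). Both calls also ended without control array 2 or 3, and that of Atf4 without control array 1. In shock the largest rise was that of Ppp1r15a, which directs a phosphatase to eIF2, at 1.94 (SE 0.181, adjusted p = 3.41e-07), followed by Chac1 at 1.56 and the pseudokinase Trib3 at 0.98, a call that ended without control array 1, 2 or 3 or shock array 3 or 4. At 4.5 h the largest rise was that of Eif2ak2, the double-stranded RNA kinase PKR, at 2.70 (SE 0.235, adjusted p = 1.49e-08), with Nupr1 at 2.08 and Ddit3 at 1.29. Atf4 was lower in shock than after minor trauma by -0.79 (adjusted p = 0.0039). Between 1 h and 4.5 h, 5 of the 15 rose and 3 fell (14.9% and 18.2% of all genes), with a median of 0.56. Eif2ak2 rose by 3.27 in that interval, and Trib3 and Ppp1r15a fell, by 1.36 and 1.35 on the log2 scale.

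The list of mTORC1 regulators and eIF4 kinases, the pathway that frees eIF4E from its binding proteins, ran mostly downward at 4.5 h against control. Of 15 genes tested 1 rose and 7 fell, with a median of -0.37, where 15.1% of all genes rose and 23.8% fell. Ddit4, an inhibitor of mTORC1, rose by 2.65 (SE 0.325, adjusted p = 1.61e-06) at 4.5 h and by 3.67 in shock. Those that fell most were Sesn1, at -1.59, and Deptor, at -0.79, which both encode inhibitors of mTORC1 as well. After minor trauma Pdcd4, an inhibitor of the eIF4A helicase, fell by 0.84 on the log2 scale (adjusted p = 0.0327). Its levels were 10.32, 10.27 and 9.16 on the 3 arrays, against 10.42 to 11.08 in controls, and without array 3 it gave -0.46 (adjusted p = 0.218), with 0% of all genes called. The call also ended without control array 1, 2 or 3.

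Marker genes of several cell types also moved across the groups. In bulk RNA a change in the number of cells and a change in RNA per cell cannot be told apart. At 4.5 h against control, 15.1% of all genes tested were higher and 23.8% lower. Of 12 neutrophil markers listed, 8 were tested and all 8 were higher at 4.5 h. Clec4e and Mmp9 lay below the array median on every control. They passed the filter only through injured groups, so their calls are not independent of it. Cxcr2 and Camp were too dim to be tested. The summed signal of the 10 measured was 112 to 427 in controls, 305 to 598 after minor trauma and 540 to 2494 in shock. It was 2956 to 4600 at 1 h and 4351 to 4936 at 4.5 h. Of 9 Kupffer cell and monocyte markers 6 were lower and 1 higher at 4.5 h (summed signal 2697 to 4159 in controls, 1217 to 1561 at 4.5 h), and of 8 endothelial markers 4 were lower and 2 higher (1559 to 2033, and 1226 to 1419). Among 8 hepatocyte markers 2 were higher and 1 lower. The part of these cell types in the late rise of initiation factors and synthetases was not tested.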

How the data were processed

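Total RNA of whole liver from 20 samples in 5 groups was hybridised to 1-colour Affymetrix arrays of 45101 probe sets. Per the submitters' processing notes the deposited intensity values were made with MAS5 (version and scaling target not given in the sources used here); they are linear signals, 1 column per array. From the deposited intensity values, log2(value + 6) was taken and quantile normalized over the 20 arrays. Of 34945 probe sets with 1 gene in the platform annotation (932 have several genes, 9160 none, and 64 are controls), 27274 lay above the median of their own array on at least 3 arrays. The brightest of these per gene was used, which gave 12832 genes. Probe sets shared by several genes were not used, so that Eif1, Eif2s1, Eif3g, Eif4g1, Dars and Eif4ebp3, among others, were not analysed here. limma 3.58.1 in R 4.3.3 fitted the 5 group means with an intensity trend, and p-values were adjusted by the Benjamini-Hochberg method over all 12832 genes within each of 7 comparisons and for the F test over the 5 groups. Folds are on the log2(value + 6) scale and understate changes of dim genes. The number of arrays limits the precision: the median SE over the 60 genes was 0.119 at 4.5 h against control.

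In each comparison the called members with the 10 largest rises and falls were named with their test, and of each other list up to 3 called genes with the largest change; values of other genes are given without a call. The members and lists were chosen with earlier results of these data known. The lists were eIF2 kinases and the integrated stress response, mTORC1 and eIF4 kinases, elongation and termination factors, initiation partners, the synthetase scaffold, mitochondrial synthetases, Myc and ribosome biogenesis, interferon-induced genes, and markers of hepatocytes, neutrophils, Kupffer cells and monocytes, lymphocytes, endothelium and erythroid cells. Residuals of same-numbered arrays correlated at a median r of 0.00374 over 36 pairs, with 3 of 36 above 0.1, so the numbers were not treated as pairs. Alternatives were other scalings, pseudocounts of 1 and 18, no filter, the mean of a gene's probe sets, no trend, array weights, replicate and spike-in blocks, each spike-in set alone, and each array left out. The fit was tested on simulated data. Figures were drawn with matplotlib 3.10.9.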

Additional observations from a re-analysis of the deposited data

Results flagged for a closer look

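In groups of 4 or 5 arrays, the highest or lowest array was compared with the rest of its group. This was done for the 26 genes called in any of the 7 pairwise comparisons. Of 104 combinations of gene and group, 7 had an array set far off by Dixon's ratio, where chance gives about 1 in 20. Eif3d was high on control array 5, at 9.36 against 8.91 to 8.99 on the other controls, and low on 4.5 h array 4, at 9.14 against 9.37 to 9.42. Eif4g2 was high on 1 h array 2, at 11.77 against 11.62 to 11.63. Eif6 was low on 1 h array 1, at 9.23 against 9.54 to 9.58. Kars was high on control array 1, at 8.27 against 7.95 to 8.03, and low on shock array 2, at 7.78 against 7.99 to 8.02. Qars was low on the same shock array 2, at 7.75 against 8.14 to 8.16.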

How the results depend on the processing

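Of the 58 called results for single initiation factors and synthetases, 39 stayed called without each single array and 6 under every alternative: Eif1a, Eif4b, Eif6 and Wars at 4.5 h against control, and Rars and Wars against 1 h. None of the 58 changed sign. Among the genes of other lists, Gspt1 at 4.5 h against 1 h changed sign to -0.0243 with all kept probe sets averaged. On values as deposited the count of called members was 0 after minor trauma, 1 at 1 h, 5 at 4.5 h, 0 for shock against minor trauma, 4 for 4.5 h against 1 h and 6 for the F test. Within the arrays with the dap spike-in these counts were 0, 1, 11, 2, 8 and 10, in the same order. The shares of all genes were 1.75%, 3.68%, 21.8%, 2.07%, 11.9% and 19.8%. Within the arrays without it, 0 were called at 1 h (2.42%), 11 at 4.5 h (23.7%) and 8 for 4.5 h against 1 h (18.8%). Minor trauma array 2 is the only one of its group there, so the other counts of that set are left out. Both sets hold fewer arrays. Minor trauma against control gave 7 with trimmed mean scaling (3.58% of all genes), 2 without the intensity trend (2.09%) and 7 with array weights (5.07%). It gave 7 without control array 5 and minor trauma array 3 together (6.25%). Shock against control gave 1 with probe sets averaged (3.27%), 1 with array weights (5.91%) and 2 without that pair of arrays (5.58%). The cause of these differences was not tested. Leaving out each array in turn, the counts ran from 0 to 12 for minor trauma, 0 to 1 for shock and 1 to 4 for 1 h. They ran from 18 to 25 for 4.5 h, 7 to 15 for shock against minor trauma and 0 to 0 for 1 h against shock. For 4.5 h against 1 h they ran from 16 to 23 and for the F test from 22 to 28. The share of all genes moved as well. For minor trauma it was 0% without its array 3 and 9.55% without control array 5. For 4.5 h it was 35.9% without control array 1 and 43.2% without minor trauma array 3. For shock against minor trauma it was 5.57% without shock array 2 and 12.6% without minor trauma array 2.

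The replicate number, which the labels share across groups but which did not pair the arrays, was also fitted as a block. It gave 11 members after minor trauma (8.91% of all genes), 1 in shock (3.76%), 2 at 1 h (11.1%) and 20 at 4.5 h (40%). Shock against minor trauma gave 12 (10.6%) and 1 h against shock 0 (1.33%). For 4.5 h against 1 h the count was 20 (33.8%) and for the F test 25 (46%). Genes below the median of their array, and those whose transcripts are read only by shared probe sets, could not be assessed.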

Other observations

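Genes of the later steps of translation were called in both directions. Of 10 elongation and termination factors 2 were higher and 2 lower at 4.5 h against control, with a median log2 fold change of 0.07. That is near the share of all genes tested, of which 15.1% were higher and 23.8% lower (38.9% either way). Gspt2 and Etf1, which act in release of the finished protein, rose by 1.03 (SE 0.289, adjusted p = 0.00729) and 0.61 (SE 0.173, adjusted p = 0.00724). Gspt2 was dim, at 3.38 to 4.38 in controls, below the array median of 4.60. It passed the filter only through late arrays 1 to 3 and minor trauma array 3, so its call is not independent of that filter. Eefsec, the elongation factor for selenocysteine, fell by 0.74 on the log2 scale (adjusted p = 0.000149). Eef2, the ribosome translocase, was lower in shock than after minor trauma, at -0.33 (SE 0.082, adjusted p = 0.0139), a call that ended without shock array 2 or minor trauma array 3, where it gave -0.23.

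Among 9 initiation partners outside the Eif symbols, 3 rose at 4.5 h against control and none fell. Of all genes tested, 15.1% rose and 23.8% fell. The helicase Ddx3x rose by 0.79 (SE 0.254, adjusted p = 0.0168) and the poly-A binding protein gene Pabpc4 by 0.61 (SE 0.164, adjusted p = 0.00554). Gigyf2, a partner of the cap-binding repressor, rose by 0.60 (SE 0.168, adjusted p = 0.00683). Pabpc4 was lower in shock than after minor trauma by -0.93, and Pabpc1 by -0.44. Of 11 genes of Myc and ribosome biogenesis, 3 were higher at 4.5 h and none lower, beside the same 15.1% and 23.8% of all genes. The nucleolar factor Nop58 rose most, by 2.11 (SE 0.384, adjusted p = 0.000164). Myc itself was higher in shock by 1.45 (SE 0.3, adjusted p = 0.00676) and at 1 h by 2.02, and fell by 1.63 from 1 h to 4.5 h (adjusted p = 0.000455). In the 4 groups compared with control, 1 of 6 lymphocyte markers was higher at 4.5 h (Gzmb, 2.62), and 1 of 2 tested erythroid markers was lower at 1 h and at 4.5 h (Klf1, -0.82 and -0.94).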
